A study of Homo sapiens with 6 samples.

Results

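The genes described here are 10 non-collagen glycoproteins of the extracellular matrix, FN1, TGFBI, TNC, THBS1, SPARC, POSTN, FBN1, ELN, FBLN1 and VCAN, which were chosen by name among the 38100 genes of the deposited tables. All 10 were found, and 9 had enough counts to be tested among 17720 tested genes. The exception was POSTN. The cells were HK2, an established line of human renal proximal tubular epithelial cells of wild-type genotype. Cells transfected with a control adenovirus (AdCtrl) and cells transfected with an adenovirus for SIRT4 (AdSirt4) were all stimulated with TGF-β1, with 3 samples in each group, so that cells without TGF-β1 are not among the samples. SIRT4, a sirtuin of the mitochondria, was overexpressed from the virus, and counts per gene do not separate viral SIRT4 from that of the cells. The cells of each sample were lysed together. The study states that n means technical replicates in its experiments in vitro, so p-values here may measure only technical spread. Labels for the cell line run from HK2 to HK7 over the 6 samples, while every title names HK2.

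Matrix glycoproteins are secreted proteins that build the scaffold around cells together with the collagens. Fibronectin (FN1) is assembled into fibrils by cells through integrins, fibrillin (FBN1) and elastin (ELN) form microfibrils and elastic fibres, and the matricellular proteins (TNC, THBS1, SPARC and POSTN) change how cells adhere and respond to growth factors more than they bear load. In the fibrotic kidney these genes are known as part of the matrix that accumulates in the interstitium, and several of them are induced by TGF-β. Thrombospondin 1 (THBS1) is also known as an activator of latent TGF-β.

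Values of single samples are given in the order of replicates 1, 2 and 3 throughout. SIRT4 was counted 31, 47 and 57 times in AdCtrl cells, against 1996, 7995 and 6827 times in AdSirt4 cells, so the labels of the groups matched the targeted gene. AdSirt4 replicate 1 stood apart from the other samples. Its log2 CPM (counts scaled to the library total with TMM) relative to AdSirt4 replicates 2 and 3 fell with gene length (Spearman correlation -0.58 across genes). Genes are not independent replicates. Each AdCtrl sample against the other AdCtrl samples gave a correlation between -0.18 and 0.17. It was also the smallest library, with 41537353 counts, against 42102861 to 53677241 in the AdCtrl samples and 85684748 and 80040053 in AdSirt4 replicates 2 and 3. The values of each member, and of the genes named from the 3 other lists below, are therefore given with and without this sample. SIRT4 had 51.2 CPM in AdSirt4 replicate 1, against 92.7 and 84.0 CPM in AdSirt4 replicates 2 and 3. Its log2 fold change was 6.36 with all samples and 6.59 without AdSirt4 replicate 1. Leaving out that sample thus also leaves out the AdSirt4 sample with the least SIRT4. Of 16 markers of renal epithelial identity, 10 reached an FPKM (counts scaled by gene length and library total) of 1 in each sample, with a summed FPKM of 1019 to 1066 in AdCtrl and 979.3 to 1173 in AdSirt4 cells. They were led by the keratins KRT8 and KRT18. CDH1 (E-cadherin) was below that level, with an FPKM of 0.0898 to 0.155 and at most 67 counts in any sample. CDH16 had a log2 fold change of -0.34 with all samples (edgeR adjusted p = 0.593). Without AdSirt4 replicate 1 it was -0.38 (edgeR adjusted p = 0.0460), and no other tested marker of this list passed in either fit. The markers of the proximal tubule differed among themselves. GGT1, a brush-border enzyme, had an FPKM of 65.7 to 83.5, while LRP2, CUBN, AQP1, ANPEP and SLC34A1 were at or near 0, with at most 49 counts in any sample. Among 10 fibroblast and myofibroblast markers, COL3A1 had 0 counts in all samples, PDGFRA at most 4 and COL1A2 at most 3, while TAGLN reached an FPKM of 12.0 to 21.1 and differed between AdSirt4 and AdCtrl cells by 0.50 on the log2 scale (adjusted p = 0.607 from edgeR) and, without AdSirt4 replicate 1, by 0.26 (adjusted p = 0.0453). The summed FPKM of this list was 22.4 to 24.1 in AdCtrl and 24.7 to 32.0 in AdSirt4 cells, of which TAGLN made up a mean of 12.5 and 17.0. PDGFRB had a log2 fold change of -0.45 with all samples and -0.34 without AdSirt4 replicate 1. COL1A1 (-0.25 and -0.14), DCN (-0.29 and -0.72) and ACTA2 (-0.10 and -0.18) were also below 0 in both fits. THY1 (0.071 and 0.18) was above 0, and LUM (0.14 and -0.044) changed direction. None of these passed an adjusted p of 0.05 in edgeR. The summed FPKM of 6 endothelial markers was at most 0.111 and that of 6 leukocyte markers at most 1.67. The part of these markers in the results below was not tested.

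The promoters of the 3 genes called in edgeR once AdSirt4 replicate 1 was left out, where 6.71% of all tested genes were called, are shown first. The calls differed between fits, as given below. Each is the 250 bases before the annotated start site in RefSeq (GRCh38.p14), read in the direction of the gene, and capitals mark matches to the motifs described after them. THBS1 is on the plus strand (chr15:39580829-39581078), FN1 on the minus strand (chr2:215436069-215436318) and SPARC on the minus strand (chr5:151686916-151687165).
THBS1: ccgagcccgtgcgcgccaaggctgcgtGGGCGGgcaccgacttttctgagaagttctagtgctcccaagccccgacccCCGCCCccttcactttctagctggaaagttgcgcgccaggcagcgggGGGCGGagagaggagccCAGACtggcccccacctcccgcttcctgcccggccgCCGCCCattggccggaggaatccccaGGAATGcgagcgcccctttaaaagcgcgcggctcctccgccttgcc
FN1: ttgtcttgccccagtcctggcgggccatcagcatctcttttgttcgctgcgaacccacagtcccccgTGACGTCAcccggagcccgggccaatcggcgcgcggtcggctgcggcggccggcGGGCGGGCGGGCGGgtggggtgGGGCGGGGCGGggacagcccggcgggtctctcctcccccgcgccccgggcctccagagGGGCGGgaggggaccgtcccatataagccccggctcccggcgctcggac
SPARC: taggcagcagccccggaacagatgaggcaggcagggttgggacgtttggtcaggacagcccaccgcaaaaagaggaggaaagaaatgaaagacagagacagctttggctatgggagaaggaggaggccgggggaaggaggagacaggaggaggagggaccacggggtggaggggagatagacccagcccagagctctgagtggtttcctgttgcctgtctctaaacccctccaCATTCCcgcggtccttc

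The motifs were searched on both strands, and matches were allowed to overlap. They were the SMAD element CAGAC, the AP-1 element TGANTCA, the TEAD element GGAATG, the SP1 element GGGCGG, the TATA box TATAAA and the CRE element TGACGTCA. A promoter was listed for 9 of the 10 genes, the other being ELN. THBS1 held 4 SP1 elements, 1 SMAD element that begins 108 bases before the start site and 1 TEAD element that begins 46 bases before it. FN1 held 6 SP1 elements, some of which overlap each other, and 1 CRE element that begins 183 bases before the start site. SPARC held none of these but 1 TEAD element that begins 17 bases before the start site. SP1 elements were found in 6 of the 9 promoters and in 42.3% of all 27305 promoters. SMAD elements were found in 4 (TNC, THBS1, POSTN and FBLN1), against 37.8% of all promoters, and TEAD elements in 3 (THBS1, SPARC and FBN1), against 11.9%. The promoter listed for FBN1 (chr15:48644971-48645220) lies within the span given for this gene below, and not upstream of it. The AP-1 element and the TATA box were each found in POSTN only among the 9, against 6.60% and 11.1% of all promoters, and the CRE element in FN1 only, against 1.77%. These are matches of letters and do not show binding.

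The 10 genes differed widely in level. In RNA of a whole culture, fewer cells that express a gene and less of its RNA per cell cannot be told apart. On the FPKM scale, which is per length, FN1 was the highest in each sample, with 961.6, 855.1 and 1016 in AdCtrl cells, against 504.1, 1066 and 1348 in AdSirt4 cells. By counts it had rank 2, 3 and 2 among all genes in AdCtrl cells, against rank 7, 2 and 1 in AdSirt4 cells. It took between 0.461% and 1.21% of all counts. Together the 10 genes took 1.19% to 1.32% of the counts in AdCtrl samples, 0.776% in AdSirt4 replicate 1, and 1.37% and 1.60% in AdSirt4 replicates 2 and 3.

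**Figure D1:**
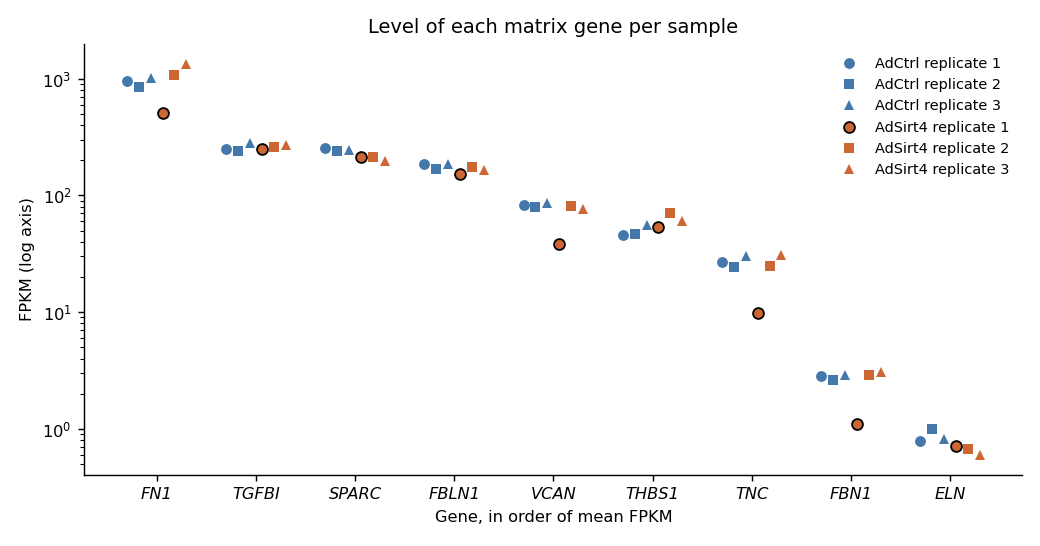
Level of 9 matrix glycoprotein genes in each sample, as FPKM on a log axis, with the genes in order of their mean over all samples. Each point is 1 sample (blue, AdCtrl; orange, AdSirt4; the black outline marks AdSirt4 replicate 1), and FN1 leads the order while ELN lies at 1.01 or below. POSTN is not drawn because it was at 0 in 5 samples.

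FN1 was followed in mean FPKM by TGFBI (258.5), SPARC (227.7), FBLN1 (172.0), VCAN (74.1), THBS1 (55.4), TNC (24.6), FBN1 (2.58) and ELN (0.763). The sample values of TGFBI (239.6 to 278.8) and SPARC (197.9 to 255.4) overlapped, as did those of VCAN (38.3 to 85.8) and THBS1 (45.9 to 70.3). The other neighbours in this order did not overlap. POSTN, which encodes periostin, a matricellular protein known from fibroblasts, had 2 counts in AdCtrl replicate 1 and 0 in the other 5 samples. A library with 0 counts may hide up to 3, or at most 0.0722 CPM in any of these samples (counting error only), so POSTN was not detectable at this depth in AdSirt4 cells and no fold is given.

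With all 6 samples, no gene of the 10 was called at a Benjamini-Hochberg adjusted p of 0.05 by the quasi-likelihood test of edgeR, where 0.0113% of all tested genes did (2 of 17720). DESeq2 (0.661% of all genes called), edgeR with a block for the replicate number (the replicate block, 0.00564%) and limma on log2(FPKM + 1) (no gene called) also called 0 of them. At an unadjusted p under 0.05, 1 of the 9 tested genes passed in edgeR, THBS1, against 7.93% of all genes, or 4.43% for those higher in AdSirt4 cells. By CPM, AdCtrl and AdSirt4 values were fully separated for 3 genes, THBS1 (higher in AdSirt4 cells), SPARC and VCAN (lower), against 19.4% of all tested genes. Of the 9 genes, 3 had a log2 fold change above 0 and 6 one below 0, with a median of -0.20 beside 0.021 for all tested genes.

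Without AdSirt4 replicate 1, FN1, THBS1 and SPARC passed an adjusted p of 0.05 in edgeR, the first 2 higher and SPARC lower in AdSirt4 cells. In this fit 6.71% of all tested genes passed (1227 of 18287). The log2 fold change was then above 0 for 5 and below 0 for 4 of the 9, with a median of 0.024 against -0.0028 for all tested genes. CPM values were fully separated for 6 of the 9, against 41.5% of all tested genes. In other fits without this sample, the same 3 genes passed in DESeq2 (9.59% of all genes called), FN1, SPARC and ELN passed in edgeR with the replicate block (13.8%), and none passed in limma on log2(FPKM + 1) (0.0178%). In the fit with the block, AdCtrl replicate 1 has no sample of the same number beside it. The group difference there rests on replicates 2 and 3 of each group, so its small p-values come from few samples. With all samples and quality weights in limma voom, where AdSirt4 replicate 1 had a weight of 0.0795, THBS1 and SPARC passed (9.51%). Both remaining AdSirt4 samples had more counts than every AdCtrl sample, so library size and group cannot be told apart in this comparison.

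**Figure D2:**
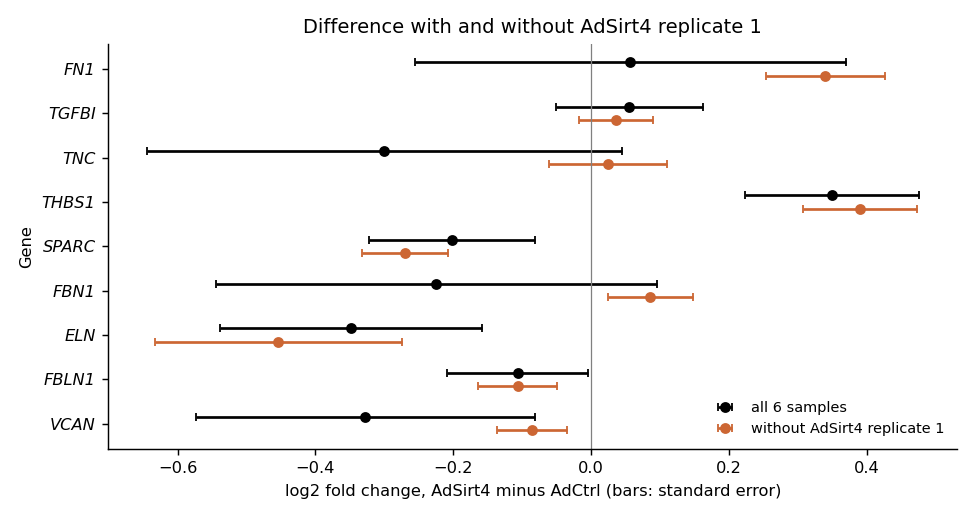
log2 fold change (AdSirt4 over AdCtrl) of the 9 tested genes from edgeR, with bars of 1 standard error, for all 6 samples (black) and without AdSirt4 replicate 1 (orange). The values of FN1 (0.057 and 0.34), TNC (-0.30 and 0.024) and FBN1 (-0.22 and 0.086) moved the most, and those of THBS1 (0.35 and 0.39) stayed above 0 in both.

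Among the adhesive glycoproteins, FN1 (Entrez gene 2335) lies on the minus strand of chromosome 2 of GRCh38 from 215360865 to 215436068. It was measured at 8693, 7907 and 8823 CPM in AdCtrl cells, against 4912, 9576 and 11955 CPM in AdSirt4 cells. AdSirt4 replicate 1 was the lowest of all samples, and the other AdSirt4 replicates were the highest, so the groups overlapped. The means were 8475 ± 495.6 CPM (SD, n = 3) in AdCtrl and 8814 ± 3583 CPM (SD, n = 3) in AdSirt4 cells, which gave a log2 fold change of 0.057 ± 0.31 (standard error; edgeR adjusted p = 0.955). Its direction depended on the samples. It was 0.34 (standard error 0.087) without AdSirt4 replicate 1, with a mean of 10765 ± 1682 CPM (SD, n = 2) that was 27.0% above AdCtrl and an adjusted p of 0.0479 from edgeR. Without AdSirt4 replicate 3 it was -0.23, without AdSirt4 replicate 2 -0.0028, and with all samples and the replicate block -0.032. The adjusted p from edgeR ran from 6.5e-06, with the replicate block and without AdSirt4 replicate 1, to 0.998 over its alternatives. The fit with the smallest value rests on replicates 2 and 3 of each group. The deposited values are per gene and do not separate the splice forms of FN1.

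TGFBI (Entrez gene 7045, chromosome 5, 136028988 to 136063818), an adhesive protein named for its induction by TGF-β, had the narrowest range over all samples among the tested genes. It had 774.4, 755.5 and 824.4 CPM in AdCtrl cells, against 832.1, 803.0 and 811.6 CPM in AdSirt4 cells. AdCtrl replicate 3 lay within the range of the AdSirt4 samples. Its log2 fold change was 0.056 ± 0.11 (standard error; edgeR adjusted p = 0.870), or 0.036 ± 0.054 without AdSirt4 replicate 1, and values between 0.028 and 0.092 were found when single samples were left out.

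Among the matricellular proteins, THBS1 (Entrez gene 7057, chromosome 15, 39581079 to 39599466) was higher by CPM in AdSirt4 cells in each sample. It had 406.6, 423.6 and 473.4 CPM in AdCtrl cells, against 518.7, 620.1 and 522.5 CPM in AdSirt4 cells. The lowest AdSirt4 sample, replicate 1, was above AdCtrl replicate 3, the highest of its group (exact permutation test, two-sided, p = 0.1, the smallest that 3 samples against 3 allow). On the FPKM scale the groups overlapped, with 54.1 in AdSirt4 replicate 1 and 55.5 in AdCtrl replicate 3. The means were 434.5 ± 34.7 CPM and 553.7 ± 57.5 CPM (SD, n = 3 each), and the log2 fold change was 0.35 ± 0.13 (standard error; edgeR unadjusted p = 0.0270, adjusted p = 0.600). Leaving out single samples moved it between 0.27 and 0.42. Without AdSirt4 replicate 1 it was 0.39 (standard error 0.083), 31.5% above AdCtrl in CPM, with an adjusted p of 0.0252. With the replicate block added the log2 fold change was 0.34 ± 0.12 and the adjusted p 0.22, so the call was lost while the difference was of similar size.

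SPARC (Entrez gene 6678, chromosome 5, 151661096 to 151686915), a collagen-binding matricellular protein, was lower in AdSirt4 cells in each sample. It had 1003, 972.4 and 915.8 CPM in AdCtrl cells, against 910.7, 838.6 and 764.9 CPM in AdSirt4 cells. AdSirt4 replicate 1 was separated from AdCtrl replicate 3 by a small gap, and the other AdSirt4 samples lay further below (exact permutation test, p = 0.1). With all samples the log2 fold change was -0.20 ± 0.12 (standard error; edgeR adjusted p = 0.718). It was -0.27 (standard error 0.062) without AdSirt4 replicate 1, a mean of 801.8 ± 52.0 CPM (SD, n = 2) against 963.7 ± 44.2 CPM (SD, n = 3), with an adjusted p of 0.0272. With the replicate block as well, which leaves replicates 2 and 3 of each group to compare, the adjusted p from edgeR was 0.00058.

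TNC (Entrez gene 3371, chromosome 9, 115019575 to 115118157), the anti-adhesive glycoprotein tenascin-C, had 249.2, 233.1 and 268.4 CPM in AdCtrl cells, against 98.6, 229.9 and 280.9 CPM in AdSirt4 cells. AdSirt4 replicate 1 was far below the other samples, while AdSirt4 replicate 2 was just below and replicate 3 above the AdCtrl samples. Tenascin-C thus had a log2 fold change of -0.30 ± 0.34 with all samples (standard error; edgeR adjusted p = 0.803) and of 0.024 ± 0.085 (adjusted p = 0.895) without AdSirt4 replicate 1. The value below 0 rested on that sample.

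Among the proteins of elastic fibres, FBN1 (Entrez gene 2200, chromosome 15, 48408313 to 48645709), which forms the microfibrils on which elastin is laid down, had 37.6, 35.2 and 36.9 CPM in AdCtrl cells, against 15.7, 38.0 and 39.9 CPM in AdSirt4 cells. AdSirt4 replicate 1 was the lowest sample, as for TNC, while AdSirt4 replicates 2 and 3 were above all AdCtrl samples by CPM. On the FPKM scale AdSirt4 replicate 2 (2.899) was just below AdCtrl replicate 3 (2.914). FBN1 had a log2 fold change of -0.22 ± 0.32 with all samples (standard error; edgeR adjusted p = 0.838) and of 0.086 ± 0.061 (adjusted p = 0.421) without AdSirt4 replicate 1.

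ELN (Entrez gene 2006, chromosome 7, 74028173 to 74069907) was counted 156, 165 and 152 times in AdCtrl cells, against 114, 216 and 181 times in AdSirt4 cells, by far the fewest of the tested members. This gave 2.89, 3.88 and 2.96 CPM against 2.93, 2.51 and 2.23 CPM, and AdSirt4 replicate 1 lay between AdCtrl replicates 1 and 3. Its log2 fold change was -0.35 ± 0.19 with all samples (standard error; edgeR adjusted p = 0.702) and -0.45 ± 0.18 (adjusted p = 0.150) without AdSirt4 replicate 1. It passed at an adjusted p of 0.036 when the replicate block was used without that sample, a comparison of replicates 2 and 3 of each group. An antisense gene, ELN-AS1, overlaps ELN and had 39 to 64 counts. The sources do not state that strand was used in counting, so reads of both genes may not have been told apart. Genes of the count table that overlap the other tested members were low beside them, with at most 60 counts for CLMAT3 (SPARC), 26 for VCAN-AS1 (VCAN) and 83 for FSIP1 (THBS1).

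FBLN1 (Entrez gene 2192, chromosome 22, 45502883 to 45601135), the calcium-binding glycoprotein fibulin-1 of elastic fibres and basement membranes, had 524.7, 482.4 and 504.2 CPM in AdCtrl cells, against 465.0, 485.7 and 453.1 CPM in AdSirt4 cells. AdSirt4 replicate 2 lay above AdCtrl replicate 2, so the groups overlapped. FBLN1 differed by -0.11 ± 0.10 on the log2 scale with all samples (standard error; edgeR adjusted p = 0.781) and by -0.11 ± 0.058 without AdSirt4 replicate 1 (adjusted p = 0.281).

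VCAN (Entrez gene 1462, chromosome 5, 83471744 to 83582302), the large chondroitin sulphate proteoglycan that binds hyaluronan, had 1035, 1007 and 1027 CPM in AdCtrl cells, against 511.4, 986.7 and 948 CPM in AdSirt4 cells. By CPM all AdSirt4 samples lay below all AdCtrl samples (exact permutation test, p = 0.1), replicate 1 by far and the others by little. On the FPKM scale the groups overlapped, with 80.9 in AdSirt4 replicate 2 and 78.9 in AdCtrl replicate 2. On the log2 scale the difference was -0.33 ± 0.25 with all samples (standard error; edgeR adjusted p = 0.747) and -0.086 ± 0.051 (adjusted p = 0.326) without AdSirt4 replicate 1.

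**Figure D3:**
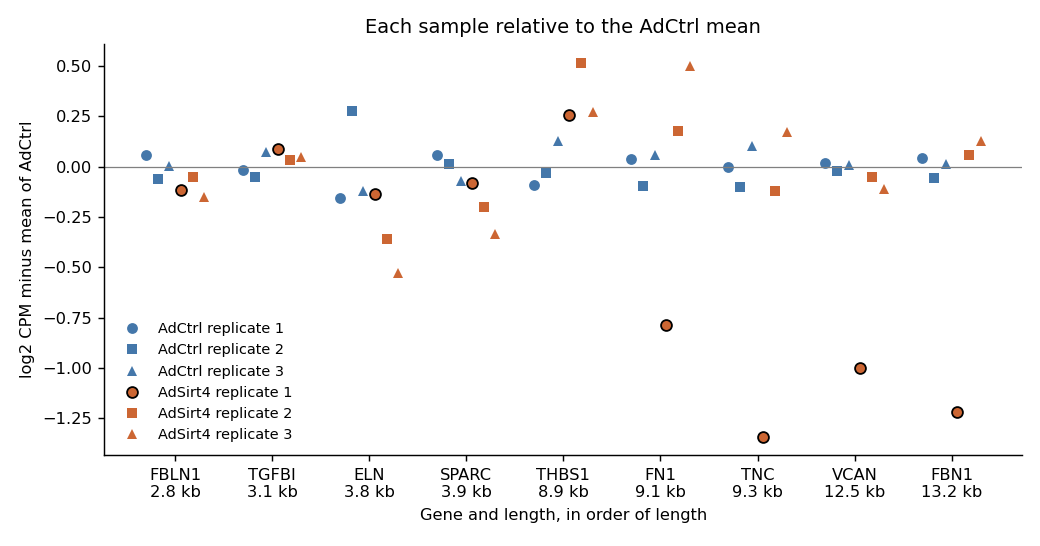
log2 CPM of each sample minus the mean log2 CPM of the AdCtrl samples, for the 9 tested genes in order of length (blue, AdCtrl; orange, AdSirt4; the black outline marks AdSirt4 replicate 1). That sample lies far below the others for FN1, TNC, VCAN and FBN1, and near them for the 4 shortest genes and for THBS1.

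The members fell into 2 classes by length. FBLN1 (2.82 kb), TGFBI (3.09 kb), ELN (3.79 kb) and SPARC (3.94 kb) were of middle length among all tested genes. THBS1 (8.90 kb), FN1 (9.06 kb), TNC (9.29 kb), VCAN (12.5 kb) and FBN1 (13.2 kb) all belonged to the longest 10% of tested genes, which begins at 8.82 kb. These lengths are those implied by the deposited counts and FPKM together, after a scale for each library was removed. For each of the 9 genes they agreed between samples within a ratio of 1.03. CPM and FPKM still differ in how each library is scaled, so small differences between samples can differ between them. In FPKM the groups overlapped for THBS1 and VCAN. ELN, which overlapped in CPM, was separated in FPKM (0.594 to 0.715 in AdSirt4 and 0.782 to 1.01 in AdCtrl cells). In AdSirt4 replicate 1, CPM relative to the mean of AdSirt4 replicates 2 and 3 was 0.386-fold for TNC, 0.404-fold for FBN1, 0.456-fold for FN1 and 0.529-fold for VCAN. It was 0.908-fold for THBS1 and 0.991-fold, 1.03-fold, 1.14-fold and 1.24-fold for FBLN1, TGFBI, SPARC and ELN.

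On the log2 scale, the median deviation of this sample was -0.75 over all genes of the longest 10%. The deviations of VCAN (-0.92), FN1 (-1.12), FBN1 (-1.31) and TNC (-1.37) were below that median, and that of THBS1 (-0.13) was above it. Of these long genes, 84.8% had a deviation at or below that of THBS1 and 17.3% one at or below that of TNC. The members of middle length had deviations of -0.013 (FBLN1), 0.044 (TGFBI), 0.19 (SPARC) and 0.30 (ELN), where genes of similar length had medians between -0.039 and 0.19. With each library's trend on length removed, a fit of all samples, the log2 fold change was 0.49 for THBS1 (adjusted p = 0.20 from edgeR), 0.12 for FN1, -0.25 for TNC, -0.15 for FBN1 and -0.22 for VCAN, and none of the 9 genes passed the adjusted threshold, where 0.0677% of all genes did.

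**Figure D4:**
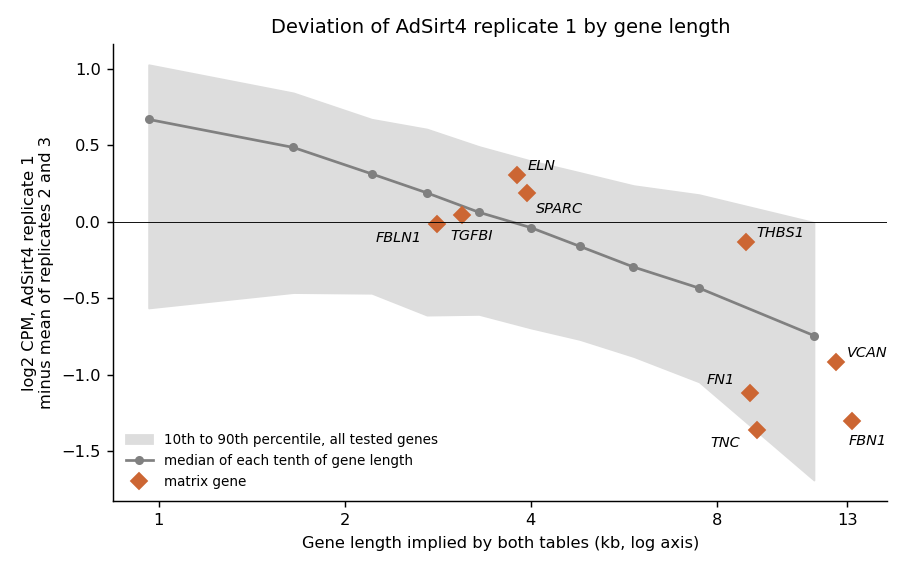
Deviation of AdSirt4 replicate 1 from the mean of AdSirt4 replicates 2 and 3, in log2 CPM, against gene length on a log axis. The grey line gives the median of each 10% of tested genes by length and the band their 10th to 90th percentile, and the orange points are the matrix genes. THBS1 (-0.13) lies above the line at a length where FN1 (-1.12) and TNC (-1.37) lie below it.

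The other genes of the matrix were read from 3 lists. Of 82 other matrix glycoproteins and proteoglycans, 54 were tested and none passed an adjusted p of 0.05 in edgeR. At an unadjusted p under 0.05, 1 was higher and 6 were lower in AdSirt4 cells, where 7.93% of all tested genes passed in either direction, and the median log2 fold change of the list was -0.014 (0.021 for all tested genes). Those with the smallest p were ECM1 (log2 fold change -0.39 with all samples and -0.44 without AdSirt4 replicate 1), TNXB (-0.58 and -0.42), SPOCK2 (0.62 and 0.54), SPOCK1 (-0.41 and -0.26) and MATN2 (-0.23 and -0.24). They were picked by p, so that their groups did not overlap, as for 19.4% of all tested genes, is a description. ECM1 and MATN2, a secreted matrix protein and a matrilin, went from 26.6 ± 1.85 to 20.4 ± 1.33 CPM and from 95.5 ± 5.72 to 81.5 ± 3.14 CPM (SD, n = 3). Without AdSirt4 replicate 1, 1 gene was higher and 8 were lower at an adjusted p of 0.05 among 58 tested (15.5%, against 6.71% of all tested genes), and ECM1 (adjusted p = 0.0100), TNXB (0.0282), SPOCK1 (0.0400) and MATN2 (0.0460) were among them in edgeR's test. The most abundant genes of the list were SPP1 (osteopontin), IGFBP7 and AGRN (agrin). SPP1 had 2268, 2099 and 2123 CPM in AdCtrl cells, against 2745, 1843 and 1689 CPM in AdSirt4 cells, with AdSirt4 replicate 1 above and the others below all AdCtrl samples, and its log2 fold change was -0.048 (adjusted p = 0.939 from edgeR) with all samples and -0.30 (adjusted p = 0.0180) without AdSirt4 replicate 1. IGFBP7 turned from a log2 fold change of 0.12 with all samples to -0.13 without AdSirt4 replicate 1, AGRN had 0.027 and 0.080, and neither gene passed in either fit.

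Of 21 receptors of these proteins, 18 were tested. None passed an adjusted p of 0.05 with all samples, 4 were higher and 0 lower at an unadjusted p under 0.05 (4.43% of all tested genes passed as higher), and the median log2 fold change was -0.041. ITGB8, the integrin subunit whose heterodimer with ITGAV activates latent TGF-β, had the smallest p among them, with 229.5, 244.7 and 236.1 CPM in AdCtrl cells, against 344.7, 415.9 and 374.8 CPM in AdSirt4 cells, which is 0.68 ± 0.11 as a log2 fold change (standard error; edgeR unadjusted p = 0.00046, adjusted p = 0.307) and 0.74 without AdSirt4 replicate 1. SDC4, a heparan sulphate proteoglycan that binds fibronectin, had 382.9, 432.5 and 426.1 CPM against 568.4, 551.0 and 580.3 CPM, with a log2 fold change of 0.45 ± 0.11 (edgeR adjusted p = 0.494) and 0.45 without AdSirt4 replicate 1. CD47, a receptor of thrombospondin 1, had 0.34 ± 0.10 on the same scale (edgeR adjusted p = 0.533) and 0.27 without it. AdSirt4 replicate 1 lay with the other AdSirt4 samples for all 3 receptors. Without that sample 5 of 18 receptors were higher and 0 lower at an adjusted p of 0.05 (27.8%, against 6.71% of all tested genes in both directions), namely ITGB8, SDC4, CD47, CD44 and ITGB6, of which CD44 (log2 fold change 0.26, and 0.17 with all samples) and ITGB6 (0.28, and 0.26 with all samples) are named here with their values known. The most abundant receptors beside SDC4 were ITGB1 and ITGAV, the integrin subunits that bind fibronectin with their partners. The log2 fold change of ITGB1 was -0.017 with all samples and -0.047 without AdSirt4 replicate 1, that of ITGAV was 0.084 and 0.18, and neither passed an adjusted p of 0.05 in either fit.

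Of 31 genes for assembly, cross-linking and turnover of the matrix, 27 were tested, and the median log2 fold change was 0.0071. With all samples 1 passed an adjusted p of 0.05 in edgeR, against 0.0113% of all tested genes. This was ADAMTS1, a protease that cleaves versican, with 37.8, 39.1 and 40.3 CPM in AdCtrl cells, against 80.1, 80.5 and 77.9 CPM in AdSirt4 cells (log2 fold change 1.03 ± 0.083, standard error; edgeR adjusted p = 0.0395, and 0.303 with the replicate block). When any sample but AdSirt4 replicate 1 was left out the adjusted p rose to as much as 0.930 and the call was lost. Those fits called 0 of all tested genes without an AdCtrl sample and 1 without AdSirt4 replicate 2 or 3. Without AdSirt4 replicate 1 the call of ADAMTS1 held (edgeR adjusted p = 5.7e-06). The log2 fold change stayed between 1.00 and 1.049 in all of these fits. CTSS, a cathepsin that degrades elastin, and PLOD2, a lysyl hydroxylase of collagen cross-links, had log2 fold changes of 0.43 (adjusted p = 0.522) and 0.27 (adjusted p = 0.612) with all samples and of 0.31 and 0.27 without AdSirt4 replicate 1. Without AdSirt4 replicate 1, 4 of 28 were higher and 0 lower at an adjusted p of 0.05 in edgeR (14.3%, against 6.71% of all tested genes in both directions), namely ADAMTS1, PLOD2, CTSS and HAS3, of which HAS3 (log2 fold change 0.24, and 0.045 with all samples) was named after its values were seen. The most abundant with PLOD2 were LOXL2, a lysyl oxidase, and CTSB, a cathepsin. LOXL2 turned from a log2 fold change of -0.0076 with all samples to 0.15 without AdSirt4 replicate 1 (adjusted p = 0.0954 from edgeR). Both remaining AdSirt4 samples were then above all AdCtrl samples, as for 21.1% of all tested genes. CTSB had log2 fold changes of -0.021 and -0.015 in the same fits.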

How the data were processed

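RNA of 6 samples of HK2 cells was sequenced from poly(A)-selected libraries. The authors deposited whole-number counts per gene without normalization, and a second table without a named unit that was read as FPKM, since counts divided by its values gave the same length in all samples within 5% for 11758 of 15894 genes. The submitters' processing notes list fastp 0.21.0, HISAT2 2.1.0, StringTie 2.1.5, DESeq2 1.30.1 and hg38. The counting settings are not given in the sources used here. Total counts ran from 41537353 to 85684748 per sample. No replicates were copies of one another, with a chi-square per gene of 10.1 or more.

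Groups were compared on counts with edgeR 4.0.16 in R 4.3.3 (filterByExpr at a minimum count of 10, TMM, robust quasi-likelihood test, Benjamini-Hochberg over all genes). Standard errors are the log2 fold change divided by the square root of F. CPM are scaled by TMM. Single genes were tested by a two-sided exact permutation test. DESeq2 1.42.0 and limma 3.58.1, with pseudocounts of 1 and 0.1 on FPKM, were alternatives. Tables and figures were made with Python 3.11.15. The procedure was tested on simulated data. Same-numbered samples deviated together (correlations of 0.178, 0.159 and 0.176 across genes, from -0.19 to 0.030 for the others), so fits with the replicate number as a block were made too. Deviations were taken from the mean of each group, so positive correlations for some pairs push those of other pairs below 0. Whether the number marks a batch was not tested. The genes and lists were chosen with earlier results of these data known. All 10 genes were named, and from each other list the 5 genes (3 for receptors and partners) with the smallest p and the 3 with the highest FPKM.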

Additional observations from a re-analysis of the deposited data

How the results depend on the processing

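With all 6 samples, 2 of all tested genes were called at an adjusted p of 0.05 in edgeR. The number was 119 with DESeq2, 5 with all genes that had a count, 4 with at least 10 counts in every sample, 1 with the replicate block, 0 in limma on log2(FPKM + 1) with or without the block, 1 on log2(FPKM + 0.1), 5 when only genes averaging an FPKM of 1 or more were kept, 12 with the length trend removed, 6 with the block as well, 1685 with sample quality weights in limma voom, and 0 to 1227 with each sample left out in turn. Of the members, 0 passed, 2 with quality weights, and 0 to 3 with a sample left out. Their median log2 fold change of -0.20 was -0.068 with quality weights and ran from -0.23 to 0.024 with a sample left out. Of the genes of the 3 other lists, 1 passed, and the number was 3 with DESeq2, 16 with quality weights, 0 with the block, 0 with the block and the length trend removed, 0 in limma on log2(FPKM + 1) with or without the block and on log2(FPKM + 0.1), and 0 to 18 with a sample left out.

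Without AdSirt4 replicate 1, further fits chosen after seeing the data gave 1464 genes in DESeq2, 2523 with the replicate block and 5 in limma on log2(FPKM + 1), of which 3, 3 and 0 were members and 20, 30 and 1 of the other lists. The medians of the members were -0.028, 0.019 and 0.013. FN1 turned to -0.032 with the block, to -0.069 in limma on FPKM (-0.069 at a pseudocount of 0.1), and ran from -0.23 to 0.34 with a sample left out. TNC ran from -0.61 to 0.024 and FBN1 from -0.44 to 0.086 with a sample left out. In the 3 further fits they were 0.027, 0.019 and 0.030 for TNC and 0.088, 0.11 and 0.074 for FBN1, which was 0.052 with quality weights. The other tested members kept their direction under every alternative run, and the replicate block with all samples changed no call of a member. The cause was not tested. ELN had the fewest counts of the tested members, 114 to 216 per sample.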
